A study of Homo sapiens with 4 samples.

Results

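Complex I, NADH:ubiquinone oxidoreductase, is the first and largest enzyme of the mitochondrial respiratory chain. It takes electrons from NADH in the matrix, passes them along iron-sulfur clusters to ubiquinone and couples this to proton pumping across the inner membrane. The catalytic core is conserved from bacteria and is encoded partly in the nucleus (among the NDUFS and NDUFV names) and partly in mitochondrial DNA. Accessory subunits (NDUFA, NDUFB, NDUFC) surround the core, and assembly factors (NDUFAF) help to build the enzyme without staying in it. Hepatocytes are rich in mitochondria, and HepG2, the line used here, is an established hepatocellular carcinoma line.

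The genes described were chosen with earlier results of these data known, and were taken by name. Every row of the array table with exactly 1 gene symbol beginning with NDUF was taken. The brightest row was kept where a gene had several. This gave 42 of 18417 genes: 9 with NDUFS or NDUFV names, 25 with NDUFA, NDUFB or NDUFC names, 7 with NDUFAF names and the noncoding transcript NDUFV1-DT. Of the 42, 41 passed the filter on dim rows and were tested. NDUFS4 did not pass and is described by its levels only. The mitochondrially encoded subunits were not analysed here. NDUFC2 and NDUFS5 are named only on rows shared with other genes, which differed by -0.83 and -0.49 and by -0.70 and -0.11 in experiments 1 and 2 and were not tested. Probe sets are named from a platform annotation, and 20 of the 40 protein-coding genes tested have at least 1 pseudogene named after them in RefSeq, and whether probes are shared was not tested.

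RNA came from HepG2 cultures transfected with a lipid reagent and with either anti-miR-191, an antisense oligonucleotide against that microRNA, or a negative control anti-miR. The sources used here give no dose, no time after transfection and no sequence of either oligonucleotide. The treatment was done on 2 occasions, so 4 one-colour arrays form 2 experiments, each with 1 anti-miR-191 array and 1 control array. Nothing states whether a culture was 1 dish or several, so the p-values rest on these 4 arrays alone. In the main limma fit, described below, they set the change against how far it differed between the 2 experiments. That spread is moderated with the spread over all genes (1 residual and 6.6 prior degrees of freedom). The comparison asks which complex I transcripts differ under the inhibitor.

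The mature microRNA that the inhibitor is named for is shown because its seed (bases 2 to 8, in capitals) is what a target transcript would pair with. It is given as in RefSeq, GRCh38.p14, chr3:49020672-49020694, minus strand.
hsa-miR-191-5p: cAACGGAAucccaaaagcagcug
NDUFAF3 is the complex I gene whose annotated span in that assembly holds the MIR191 hairpin, with NDUFAF3 on the plus strand and the hairpin on the minus strand.

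Values are robust multi-array average (RMA) intensities on the log2 scale, so a difference of 1 is a 2-fold difference. Changes are anti-miR-191 minus control, given as the mean of both experiments ± limma's moderated SE. This SE draws on the spread over all genes and can exceed the spread of a gene's own 2 changes. "Rose" and "fell" are used for an adjusted p under 0.05 in limma's paired fit, which holds the experiment constant, with Benjamini-Hochberg adjustment across the 14147 genes that entered it. Array medians lay between 4.37 and 4.43, and interquartile ranges were 3.38 and 3.43 on the anti-miR-191 arrays against 3.18 and 3.24 on the control arrays. Hepatocyte markers read between 4.82 (FGG) and 12.96 (APOA2) in controls with a median of 10.62. Of these 10 markers, 1 fell (TTR), and experiment 1 gave them a median of 0.02 where experiment 2 gave -0.72. Markers of other cell types had a median of 3.66 in controls and reached 9.24 for LYZ. None of the 9 tested was called by limma, and whether cell composition differed was not otherwise tested. In RNA from whole cultures, fewer cells of a kind and less RNA per cell cannot be told apart.

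Complex I transcripts were lower on balance after anti-miR-191, with most of the falls among the accessory subunits. Of the 41 genes tested, 19 fell, against 3.77% of all genes tested, and 3 rose, against 10.1%. Over the complex I genes the median was -0.52 for the mean of both experiments, -0.53 in experiment 1 alone and -0.52 in experiment 2 alone, beside 0.01 over all genes tested. Both experiments gave a lower value for 25 of the 41 (33% of all genes tested) and a higher value for 11 (36.5%). In both experiments 19 were at least 1.5-fold lower (2.22% of all genes) and 1 was at least 1.5-fold higher (6.45% of all genes). The unpaired limma fit, which leaves the experiment out, called 7 lower and 0 higher, against 0.714% and 3.2% of all genes. At an unadjusted p under 0.05 it had 21 lower and 4 higher, against 889 and 2159 of all 14147 genes. Leaving out 1 array in the unpaired fit ended most or all of the complex I calls. The median change of the accessory subunits then ranged from -0.96 to -0.64, and all class medians kept their sign.

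**Figure D1:**
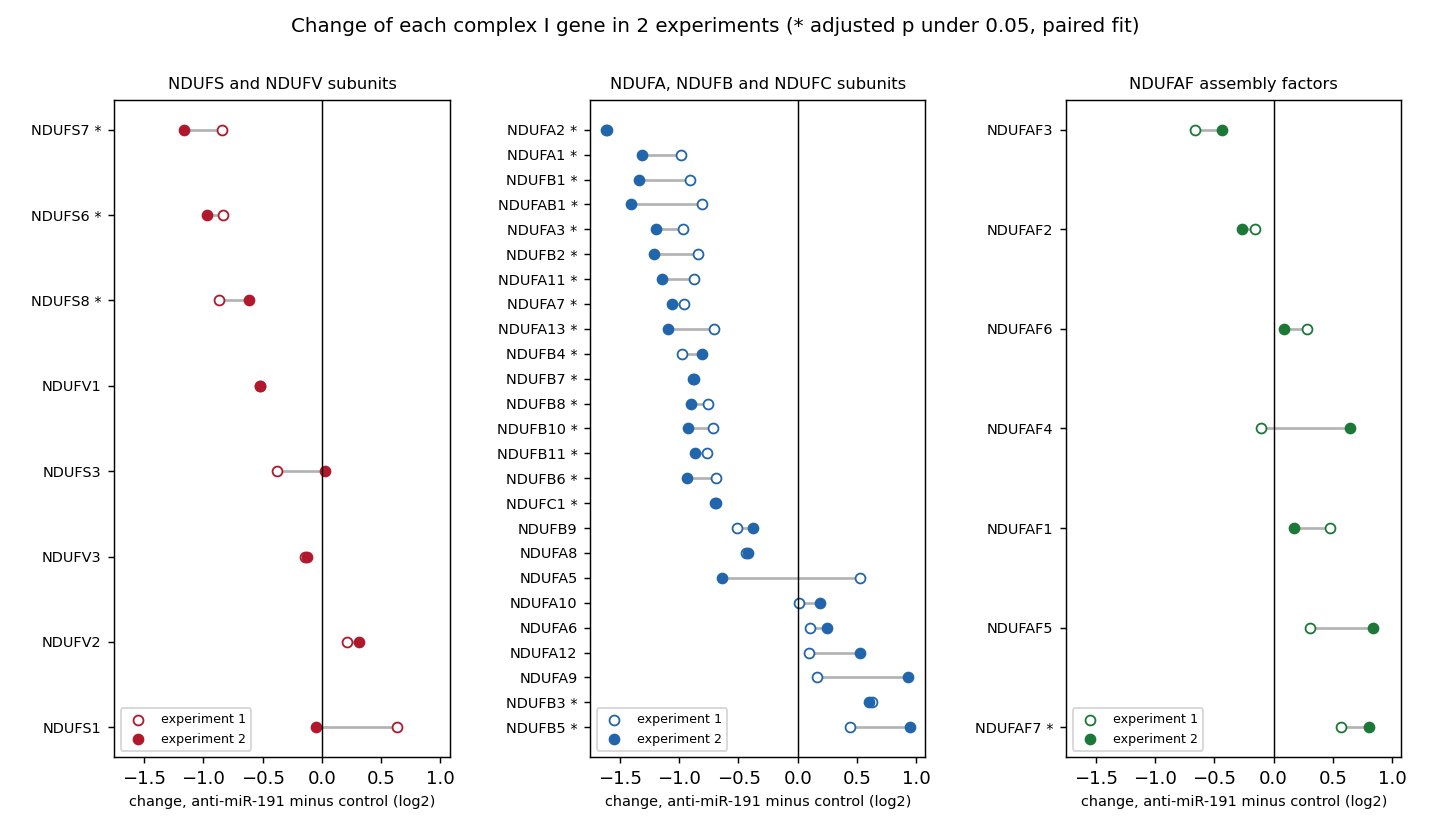
Change of each complex I gene tested (x axis, anti-miR-191 minus control, log2) in experiment 1 (open) and experiment 2 (filled), for NDUFS and NDUFV subunits, for NDUFA, NDUFB and NDUFC subunits, and for NDUFAF assembly factors; a star marks an adjusted p under 0.05 in the paired limma fit. The 16 accessory and 3 NDUFS genes with a star on the left lie below 0 in both experiments, and NDUFB3, NDUFB5 and NDUFAF7 lie above 0 in both.

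The 25 accessory subunits gave the largest share of falls. Of these, 16 fell, 2 rose and 7 were not called, and the median was -0.82 (experiment 1, -0.71, experiment 2, -0.88). By name, 7 of 13 NDUFA genes fell and 0 rose, 8 of 11 NDUFB genes fell and 2 rose, and NDUFC1 fell. NDUFA genes include subunits of the matrix arm and of the membrane arm near it, while NDUFB genes encode subunits of the distal, proton-pumping membrane arm.

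NDUFA2, a small thioredoxin-like subunit of the NADH-oxidising end of the matrix arm, had the largest change of the family. It read 7.22 and 7.61 after anti-miR-191 and 8.84 and 9.22 in controls of experiments 1 and 2. Both treated arrays were low and both controls high, with no overlap, and the change was nearly the same in each experiment (-1.62 and -1.61). NDUFA2 fell 3.06-fold (-1.62 ± 0.14, limma's adjusted p = 0.0017) and was called in the unpaired fit as well (adjusted p = 0.025).

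The other 6 NDUFA genes that fell, NDUFAB1 included, had changes between -1.15 and -0.90. NDUFA1, a single-pass membrane subunit essential for assembly, read 7.87 and 8.17 after anti-miR-191 against 8.86 and 9.49 in controls. NDUFA3 read 8.06 and 7.85 against 9.03 and 9.05. NDUFA11, a multi-pass membrane subunit, read 8.55 and 9.03 against 9.42 and 10.18. In each of these the higher treated array stayed below the lower control, and the genes fell 2.22-fold, 2.12-fold and 2.01-fold (limma's adjusted p between 0.0051 and 0.0072). NDUFA13, also known as GRIM-19, read 8.31 and 8.44 against 9.02 and 9.53 and fell 1.87-fold. NDUFA7, a matrix-arm subunit, read 7.87 and 7.96 against 8.83 and 9.02 and fell 2.01-fold. NDUFAB1, the mitochondrial acyl carrier protein that also serves fatty acid synthesis in the matrix, read 8.52 and 8.60 against 9.32 and 10.01. Its change of -1.11 ± 0.18 was larger in experiment 2 (-1.41) than in experiment 1 (-0.81), and treated and control arrays did not overlap.

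The remaining NDUFA genes did not pass the test. NDUFA8 was lower in both experiments (-0.44 and -0.42, limma's adjusted p = 0.094). NDUFA9, a matrix-arm subunit that carries a bound nucleotide and sits at the junction with the membrane arm, had changes of 0.16 and 0.93 (limma's adjusted p = 0.12). NDUFA12, NDUFA6 and NDUFA10 had mean changes of 0.31, 0.18 and 0.10, and each was higher than its control in both experiments. NDUFA5 moved in opposite ways between the experiments by at least 0.3 each way, as did 1.92% of all genes, reading 3.98 and 3.73 after anti-miR-191 against 3.45 and 4.37 in controls, close to the limit of 3.41 below which rows were left out.

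Most NDUFB genes, of the distal membrane arm, fell. NDUFB1 read 6.90 and 7.34 after anti-miR-191 against 7.81 and 8.68 in controls. NDUFB2 read 7.52 and 7.53 against 8.37 and 8.75. NDUFB1 fell 2.18-fold and NDUFB2 2.04-fold, with non-overlapping groups in both. NDUFB1, whose control arrays stood apart from each other, was called in the paired limma fit alone (adjusted p = 0.0064, and 0.10 unpaired).

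NDUFB7, which carries paired cysteines and faces the intermembrane space, gave nearly the same change in each experiment. It read 8.64 and 8.47 against 9.53 and 9.35, a 1.84-fold fall with changes of -0.89 and -0.88. NDUFB4 read 7.71 and 8.16 against 8.69 and 8.97, and fell 1.86-fold. Its 2 rows on the array held identical values, and 12 NDUFB4 pseudogenes are annotated, so this measurement is uncertain as to its source. NDUFB8 read 8.65 and 8.80 against 9.41 and 9.70, and NDUFB10 read 7.91 and 7.97 against 8.62 and 8.90. They fell 1.78-fold and 1.77-fold, with no overlap between groups. NDUFB11 (1.76-fold) and NDUFB6 (1.76-fold) fell by like amounts, and NDUFC1 fell 1.62-fold. NDUFB6 differed from the other genes that fell in that its groups overlapped: it read 4.199 and 4.998 after anti-miR-191 against 4.892 and 5.929 in controls, so the fall shows only within each experiment (unpaired adjusted p = 0.30 in limma). NDUFB9 was lower in both experiments (-0.51 and -0.38) without passing.

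NDUFB5 and NDUFB3 were the 2 accessory subunits that rose. NDUFB5, a single-pass membrane subunit, read 6.92 and 7.24 after anti-miR-191 against 6.47 and 6.29 in controls and rose 1.62-fold (0.70 ± 0.17, limma's adjusted p = 0.034). NDUFB3 read 6.53 and 6.83 against 5.91 and 6.23 and rose 1.53-fold (0.61 ± 0.14, adjusted p = 0.029). Both treated arrays were above both controls in each gene, and neither passed in the unpaired fit (adjusted p = 0.084 and 0.13). Quantile normalization ended both calls, with mean changes of 0.57 and 0.49 and limma's adjusted p of 0.096 and 0.0767, and cyclic loess ended that of NDUFB5 (adjusted p = 0.0543).

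**Figure D2:**
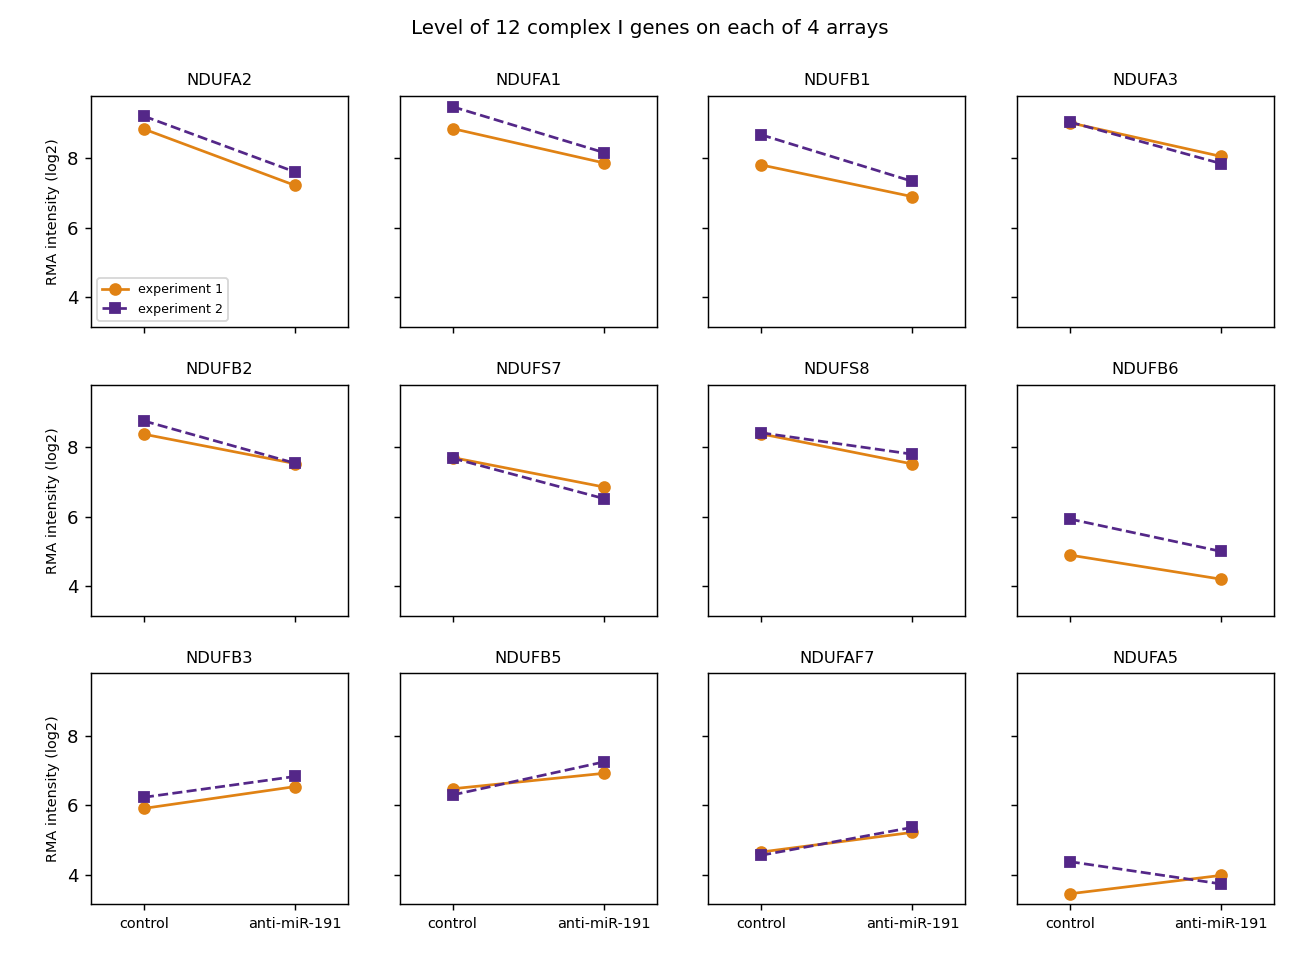
RMA intensity (y axis, log2) of 12 complex I genes on the control and anti-miR-191 arrays, with a line joining the arrays of experiment 1 (circles, solid) and of experiment 2 (squares, dashed). The lines slope down in both experiments for NDUFA2, NDUFA1, NDUFB1, NDUFA3, NDUFB2, NDUFS7, NDUFS8 and NDUFB6, slope up in both for NDUFB3, NDUFB5 and NDUFAF7, and run in opposite directions for NDUFA5.

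The NDUFS and NDUFV genes divided by subunit. Of 8 tested, 3 fell and 0 rose in limma's paired fit, and the median was -0.35 (experiment 1, -0.45, experiment 2, -0.32). At an unadjusted p under 0.05 in that fit, 4 were lower and 0 higher, against 1271 and 2704 of all 14147 genes tested. The names do not match the catalytic core exactly: NDUFS4, NDUFS6 and NDUFV3 are accessory subunits. Of the 6 nuclear-encoded core subunits proper that were tested, 2 fell (NDUFS7 and NDUFS8) and 0 rose.

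NDUFS7 and NDUFS8 hold the last iron-sulfur clusters of the chain, next to the ubiquinone site. NDUFS7 read 6.85 and 6.52 after anti-miR-191 against 7.70 and 7.68 in controls, with the controls close together and both treated arrays below them. It fell 2.01-fold (-1.005 ± 0.15, limma's adjusted p = 0.0077, and 0.037 unpaired). NDUFS8 read 7.51 and 7.79 against 8.38 and 8.41, did not overlap and fell 1.67-fold. NDUFS6, an accessory subunit that binds zinc, read 8.66 and 8.16 against 9.50 and 9.13 and fell 1.87-fold.

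The other NDUFS and NDUFV genes tested did not pass. NDUFV1, the flavin-binding subunit that takes electrons from NADH, read 8.94 and 8.35 after anti-miR-191 against 9.46 and 8.87 in controls. Its change was the same in both experiments (-0.53 and -0.52) but the groups overlapped, and limma's adjusted p was 0.051. The adjusted p was 0.0428 with dim rows kept and 0.0428 with a trend in the moderation. NDUFV2, the partner of NDUFV1, read 7.833 and 8.319 against 7.621 and 8.001, and the overlapping groups gave a change of 0.26 ± 0.14. NDUFS1, the large iron-sulfur subunit of the matrix arm, read 7.28 and 7.09 against 6.65 and 7.13, higher in experiment 1 alone. NDUFS3 had changes of -0.38 and 0.03, and NDUFV3 had changes of -0.14 and -0.13. NDUFS4, which was not tested, read 3.07 and 3.55 after anti-miR-191 and 3.42 and 3.14 in controls. Its groups overlapped and its changes were opposite (-0.35 and 0.40).

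Of 7 NDUFAF assembly factors tested, 0 fell and 1 rose in limma's paired fit. These counts are near the shares over all genes (3.77% lower and 10.1% higher), and the difference from the subunits was not tested. The classes also differed in median level and genomic span. These were 5.08 and 36.6 kb for assembly factors, 8.35 and 12 kb for accessory subunits and 7.98 and 13.2 kb for NDUFS and NDUFV genes. The part of level and span in the class difference was not tested. The median change of the assembly factors was 0.27 (experiment 1, 0.28, experiment 2, 0.17). At an unadjusted p under 0.05 in the paired fit, 1 was lower and 2 higher, against 1271 and 2704 of all 14147 genes. NDUFAF7, an arginine methyltransferase that acts early in assembly, read 5.22 and 5.36 after anti-miR-191 against 4.65 and 4.56 in controls. Both treated arrays were above both controls, and it rose 1.61-fold (0.68 ± 0.15, limma's adjusted p = 0.024, and 0.062 unpaired). NDUFAF5, which hydroxylates NDUFS7, read 5.004 and 5.735 against 4.695 and 4.892 and did not pass (0.58 ± 0.17, adjusted p = 0.069).

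NDUFAF3, the complex I gene whose span holds the MIR191 hairpin on the opposite strand, was the NDUFAF assembly factor nearest to a fall. It read 6.81 and 6.98 after anti-miR-191 against 7.47 and 7.41 in controls, with no overlap, a change of -0.55 ± 0.15 and limma's adjusted p of 0.0501. The call turned with the processing, since the adjusted p was 0.0428 with dim rows kept, 0.0375 after quantile normalization and 0.0427 after cyclic loess. NDUFAF2, a paralogue of NDUFA12, read 6.27 and 6.64 against 6.43 and 6.90, overlapping (-0.21 ± 0.14). A dimmer second row of NDUFAF2 had changes of 0.12 and -0.11. NDUFAF4 had changes of -0.11 and 0.64, NDUFAF1 had 0.47 and 0.17, and NDUFAF6 had 0.28 and 0.09, and none of them passed.

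Across the 40 protein-coding genes the experiments gave similar changes. Pearson's r between the change in experiment 1 and that in experiment 2 was 0.86 and Spearman's rho 0.86, beside 0.68 and 0.58 over all genes tested. These are descriptions across genes, which share the same 4 arrays and are not independent replicates. Treated and control arrays did not overlap for 22 of the 41 genes in the lower direction, against 23.8% of all genes, and for 7 in the higher direction, against 29.4%. NDUFV1-DT, transcribed away from NDUFV1, had changes of 0.27 and -0.30 at levels between 3.48 and 3.86.

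**Figure D3:**
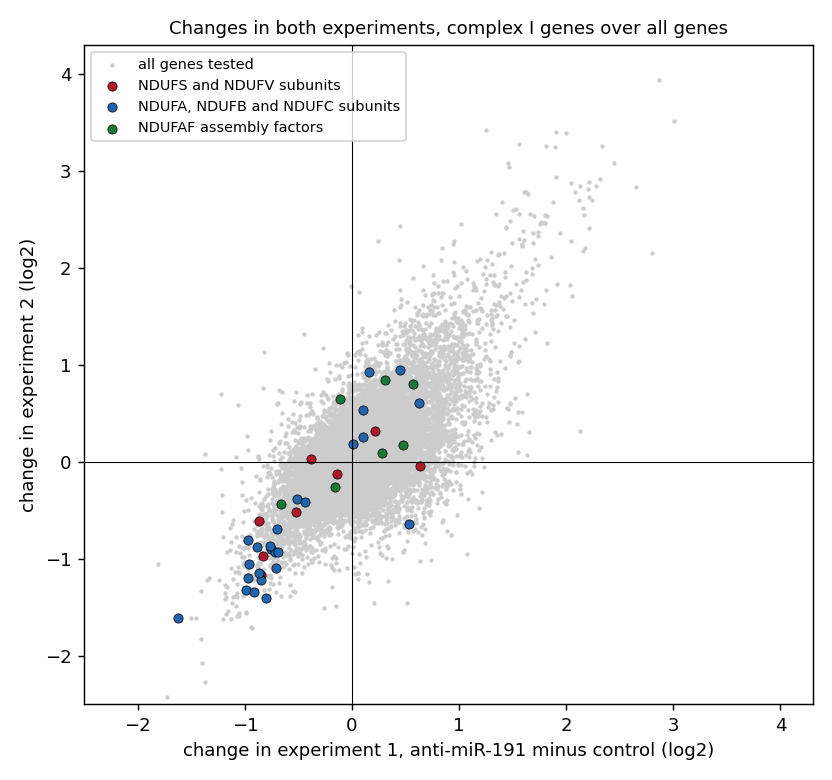
Change in experiment 1 (x axis) against change in experiment 2 (y axis), as log2 differences of treated minus control arrays, for all 14147 genes tested (grey) and the 40 protein-coding complex I genes (coloured by class). Most subunits lie in the lower left, assembly factors lie mostly above 0 in experiment 2, and NDUFA2 lies farthest to the lower left among complex I genes.

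Other genes of the pathway were read in the same fit, from lists written down by name with earlier results of these data known. Of 11 assembly factors without an NDUF name, 9 were tested, 2 fell and 0 rose, with a median change of -0.23. DMAC1, a membrane-arm assembly factor, fell 2.10-fold with changes of -0.92 and -1.22, and DMAC2 fell by 0.56 ± 0.15 (limma's adjusted p = 0.0445, and 0.0918 unpaired). TIMMDC1 had changes of -0.34 and 0.35, ACAD9 had 0.47 and 0.28 and ECSIT had -0.36 and -0.22, none past the test. COA1, FOXRED1, TMEM70 and TMEM186 had mean changes of -0.59, -0.23, -0.05 and 0.40, also not past it, and TMEM126B and NUBPL were left out as dim. Of 34 tested subunits of complexes II to IV and ATP synthase, 17 fell (50%, against 3.77% of all genes) and 0 rose. Their median change was -0.54. Of the 40 complex I genes 47.5% fell, but these include the 7 NDUFAF assembly factors, of which 0 fell, while the 34 are subunits only. By class, 64% of the complex I accessory subunits and 37.5% of the NDUFS and NDUFV genes fell. The unpaired fit called 8 of the 34 lower, against 0.714% of all genes. The difference between these sets was not tested. The largest falls were in UQCRQ of complex III (-1.56), COX5B of complex IV (-1.38) and COX7C of complex IV (-1.37).

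Of 12 regulators of mitochondrial gene expression tested, 0 fell and 2 rose in limma's paired fit. This is near the shares over all genes (3.77% lower and 10.1% higher). At an unadjusted p under 0.05 in the same fit, 0 were lower and 6 higher, against 1271 and 2704 of all 14147 genes. NRF1, a transcription factor of many respiratory chain genes, rose from 5.87 and 5.83 in controls to 6.35 and 6.83 (0.74 ± 0.17, adjusted p = 0.0275, and 0.0923 unpaired). PPRC1, a coactivator related to PGC-1, rose from 7.50 and 7.43 to 8.16 and 8.30 (0.77 ± 0.15, adjusted p = 0.0157, and 0.0478 unpaired).

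The complex I genes that fell were short in the genome. The 19 that fell spanned 2.35 to 20.2 kb with a median of 6.20 kb, the 3 that rose spanned 13.8 to 39.7 kb, and the 18 that were not called had a median of 29.5 kb. Of the 14 in the shortest quartile of all genes tested (up to 8.40 kb), 10 fell, and of the 15 in the next quartile (up to 23.3 kb), 9 fell and 2 rose. Of the 11 with longer spans 0 fell and 1 rose in limma's paired fit. Pearson's r of the change with log10 span was 0.58 over the 40 genes and 0.19 over the 14134 genes tested with a span, as descriptions.

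The whole table leaned the same way. From the shortest to the longest quartile of all genes, the share called lower was 8.69%, 4.10%, 1.44% and 0.849%, and the share called higher was 6.20%, 9.60%, 12.6% and 12%. By intensity, 29 of the 40 genes lay in the brightest quartile of rows, where 10.9% of all genes were called lower and 14.5% higher, and 18 of these 29 fell. The part of gene length, RNA quality or signal in the result was not tested.

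**Figure D4:**
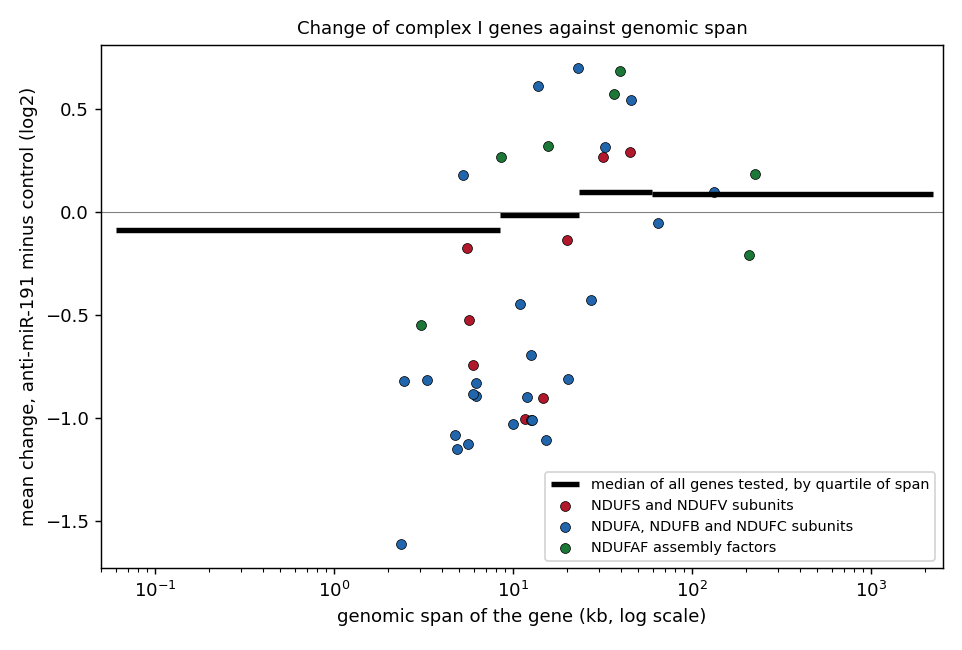
Mean change (y axis, anti-miR-191 minus control, log2) of the 40 protein-coding complex I genes against the genomic span of the gene (x axis, kb, log scale), with black bars for the median change of all genes tested in each quartile of span. The genes that fell lie at spans up to 20.2 kb, while the medians of all genes run from -0.09 in the shortest quartile to 0.09 in the longest.

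Upstream sequences are shown for NDUFA2, NDUFA1 and NDUFS7, which have the largest falls among accessory and core genes. NDUFB5, with the largest rise, had no sequence, so NDUFB3 and NDUFAF7, which also rose, are shown to set the 2 directions side by side. Each is the 250 bases before the annotated start in RefSeq, GRCh38.p14, on the strand of the gene, and capitals mark a match to 1 of 3 motifs searched on both strands. NDUFA2 is at chr5:140647631-140647880 (minus), NDUFA1 at chrX:119871582-119871831 (plus), NDUFS7 at chr19:1383657-1383906 (plus), NDUFB3 at chr2:201071751-201072000 (plus) and NDUFAF7 at chr2:37231408-37231657 (plus).
NDUFA2: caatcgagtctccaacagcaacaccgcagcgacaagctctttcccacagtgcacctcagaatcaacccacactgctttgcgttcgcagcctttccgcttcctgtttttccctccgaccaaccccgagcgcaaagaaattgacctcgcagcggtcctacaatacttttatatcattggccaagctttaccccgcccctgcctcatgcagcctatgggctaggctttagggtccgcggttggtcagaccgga
NDUFA1: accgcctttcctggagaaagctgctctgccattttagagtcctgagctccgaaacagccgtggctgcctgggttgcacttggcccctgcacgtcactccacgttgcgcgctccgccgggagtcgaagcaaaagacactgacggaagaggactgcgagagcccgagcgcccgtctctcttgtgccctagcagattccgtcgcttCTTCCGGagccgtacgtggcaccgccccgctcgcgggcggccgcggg
NDUFS7: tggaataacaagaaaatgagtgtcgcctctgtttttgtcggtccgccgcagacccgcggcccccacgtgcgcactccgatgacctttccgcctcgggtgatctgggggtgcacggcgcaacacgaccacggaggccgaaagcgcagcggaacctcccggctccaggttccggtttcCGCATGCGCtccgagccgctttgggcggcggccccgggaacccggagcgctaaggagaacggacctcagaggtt
NDUFB3: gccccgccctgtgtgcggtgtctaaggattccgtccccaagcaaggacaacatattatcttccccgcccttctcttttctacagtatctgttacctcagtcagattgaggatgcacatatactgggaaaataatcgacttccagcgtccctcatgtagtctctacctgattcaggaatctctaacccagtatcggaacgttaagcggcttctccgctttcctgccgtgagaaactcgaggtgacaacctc
NDUFAF7: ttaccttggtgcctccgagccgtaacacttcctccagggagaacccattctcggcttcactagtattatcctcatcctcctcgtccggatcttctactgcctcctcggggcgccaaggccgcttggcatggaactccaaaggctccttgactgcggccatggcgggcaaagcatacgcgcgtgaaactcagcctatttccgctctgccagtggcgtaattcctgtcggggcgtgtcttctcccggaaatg
The motifs were GCGCANGCG for NRF1, CCGGAAG for ETS factors such as GABPA, and AAGATGGCG for YY1, none of whose matches overlapped a match of another motif in the windows of these genes. NDUFS7 carries an NRF1 match and NDUFA1 an ETS match upstream, and the other 3 stretches hold none of these letters.

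Over whole windows, which run 50 bases past the start, 38 of the 41 protein-coding genes had a sequence. An NRF1 match was found for 11 of the 38 (28.9%), against 14.6% of the 11054 genes tested with a window and 7.52% of all 35116 windows. A YY1 match was found for 6 (15.8%), against 3.97% and 1.75%, and an ETS match for 6 (15.8%), against 18.8% and 10.3%. Of the 19 genes that fell, 6 had an NRF1, 3 an ETS and 3 a YY1 match. Of the 16 tested genes with a window that were not called, 5 had an NRF1, 3 an ETS and 2 a YY1 match. Neither NDUFB3 nor NDUFAF7 had any, and NDUFB5, which also rose, had no window. A match is a description of the letters and was not tested as a binding site.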

How the data were processed

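The deposited values are log2 intensities of 4 Affymetrix arrays, 1 per culture, which the authors made by RMA (the submitters' processing notes name Affymetrix Expression Console). The log base was taken from the usual output of RMA and the range of the values, and which arrays were normalized together is not given in the sources used here. Of 33297 rows, 19460 had 1 gene symbol, 1754 several and 12083 none in the platform annotation. The brightest row stood for a gene, and rows in the lowest 33.3% by mean (below 3.41) were left out, which left 14147 genes. limma 3.58.1 (R 4.3.3) was fitted with the experiment as a block (1 residual and 6.6 prior degrees of freedom), and the procedure was tested on simulated data. The pairing comes from the replicate numbers and from the series text, which places the 2 treatments in separate studies. As a check, arrays with the same number deviated together from the means of their groups (r = 0.335). Alternatives were a fit without the block, other filters, scalings, moderation and row choices, and leaving out each array. Array values were printed for up to 15 called genes by size of change, for the 2 largest changes in each direction per class, and for genes whose experiments moved oppositely by at least 0.3. NDUFB6, NDUFS8 and NDUFV1 were added after their values were seen. The members and lists were chosen with earlier results of these data known. The number of arrays limits the precision.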

Additional observations from a re-analysis of the deposited data

Results flagged for a closer look

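NDUFA5, an accessory subunit of the matrix arm, was higher than its control in experiment 1 (0.53) and lower in experiment 2 (-0.64), so that the change in experiment 2 minus that in experiment 1 was -1.17 on the log2 scale. The difference was not tested, since each experiment has 1 array per group. Among all genes tested, 1.92% moved in opposite directions by at least 0.3 each way, and NDUFA5 was the 1 tested NDUF gene that did. NDUFS4, which was too dim to test, had changes of -0.35 and 0.40. TIMMDC1, an assembly factor without an NDUF name, had -0.34 and 0.35. The mean level of NDUFA5 was low, and 12 pseudogenes carry its name in RefSeq.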

How the results depend on the processing

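The 22 called complex I genes kept their sign in every alternative run, and 20 of them kept their call under the 7 filter, scaling, moderation and row alternatives. Without the replicate block the counts were 101 lower and 452 higher over all genes, and 7 lower and 0 higher among complex I genes, and the block also decided the calls of 15 of the 22 named genes. Quantile normalization gave 896 genes higher in all, 1 complex I gene higher and an assembly factor median of 0.17. With dim rows kept, the NDUFS and NDUFV median was -0.18, since NDUFS4 then enters. With 1 array left out, in the fit without the block and assuming that the lone array varies like the other group, all genes gave 0 to 315 higher and 0 to 24 lower, and complex I genes 0 to 1 lower and 0 to 0 higher. Class medians then ranged from -0.53 to -0.20 (NDUFS and NDUFV), from -0.96 to -0.64 (accessory) and from 0.0563 to 0.41 (assembly). Sign changes were limited to genes not called: NDUFA10 was -0.0429 after quantile normalization, and NDUFV1-DT was 0.0340 after quantile normalization and 0.0399 after cyclic loess. With 1 array left out, NDUFA10 ranged from -0.0092 to 0.20, NDUFA5 from -0.52 to 0.41, NDUFA6 from -0.21 to 0.57, NDUFV1-DT from -0.21 to 0.17, NDUFAF6 from -0.0401 to 0.41, NDUFAF2 from -0.45 to 0.0251. The causes were not tested. The median of all genes stayed between -0.024 and 0.037 under all filters, scalings and left-out arrays. NDUFA5 and NDUFS4 read close to the limit for dim rows.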
